A study of Homo sapiens with 12 samples.

Results

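Glycolysis turns glucose into pyruvate, and its lower stretch runs from aldolase, which splits the sugar into triose phosphates, to pyruvate kinase. Lactate dehydrogenase then reduces pyruvate to lactate and returns the NAD+ that the pathway uses. The mRNAs of 10 enzymes of this stretch were measured in human embryonic stem cells (hESCs): ALDOA and ALDOC (aldolases), TPI1, GAPDH, PGK1, PGAM1, ENO1 and ENO2 (enolases), PKM and LDHA. The 10 genes were chosen with earlier results of these data known and taken by symbol from a table of 28278 genes. All 10 were in the table, and all 10 were among the 15916 genes that passed the filter on low counts.

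The cells were of the line WA26, an established hESC line, and carried either wild-type UBQLN1 (WT) or a CRISPR/Cas9 knockout of it (KO). UBQLN1 encodes ubiquilin 1, a shuttle protein that carries ubiquitin-tagged proteins to the proteasome. The libraries fell into 4 groups of 2: WT at normal O2 with no treatment, KO at normal O2 with no treatment, KO at 5% O2, and KO with NAC (N-acetylcysteine, an antioxidant). WT libraries at 5% O2 or with NAC were not analysed here, so each treatment was compared within KO cells only. The labels give neither the clone behind a library, nor the length of culture, nor the dose of NAC, and name no vehicle. The labels of the NAC libraries name no O2 level. For 5% O2 the paper's text gives hours of culture before RNA-seq, while its scheme gives passages for both treatments. The scheme also names DMSO as the negative control. Differences in length of culture or vehicle between the groups therefore cannot be told apart from the treatments.

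The libraries held 31236968 to 41639350 gene counts each, and the 2 libraries of every group differed by more than sampling noise (chi-square per degree of freedom 9.32 to 30.5). All 8 pluripotency markers examined, POU5F1, NANOG, SOX2, LIN28A, DNMT3B, DPPA4, TDGF1 and L1TD1, were above 1 CPM (counts scaled to a common library size) in every library, and their summed level ran from 5137 to 6375 CPM. UBQLN1 mRNA was at 221 and 197 CPM in WT and between 42.3 and 62.4 CPM in the 6 KO libraries. One library stood apart. KO NAC library 1 held all 8 mesenchymal markers above 1 CPM, with a summed level of 936 CPM against 512 to 627 CPM in the other 7 libraries, where 4 of the 8 passed 1 CPM. Its DCN, a connective tissue proteoglycan, was at 47.2 CPM and had 0 counts in the other 7. The main results with NAC are therefore also given without this library. The pluripotency markers were not level with NAC either, where 23.8% of all tested genes were called higher and 20.8% lower. Against untreated KO, DNMT3B was at 0.510-fold, L1TD1 at 0.623-fold and NANOG at 0.805-fold, all called lower, DPPA4 at 1.62-fold and TDGF1 at 1.20-fold were called higher, and POU5F1, SOX2 and LIN28A did not pass. The 5 calls also held without NAC library 1, where POU5F1 was called lower as well. None of the 8 was called at 5% O2 by edgeR, with adjusted p from 0.0717 to 0.937. Over all tested genes, 3.68% were called higher there and 4.13% lower.

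In most cells many of these enzymes are abundant and their mRNAs are read as housekeeping transcripts. ALDOC and ENO2, the brain-type aldolase and the neuronal enolase, are not among them. Pluripotent stem cells rely strongly on glycolysis. Several of the genes are also textbook targets of the hypoxia-inducible factors, which bind the letters ACGTG or GCGTG in DNA when oxygen is low. The 250 bases before the RefSeq start sites (assembly GRCh38.p14) were therefore read for these 2 words on both strands, with overlapping matches counted as 1. Of 35116 such windows over all genes, 43.2% held at least 1 match and 16.1% held at least 2. The table gave 14 windows for the 10 genes, of which 11 held a match, and 8 of the 10 genes had a match in at least 1 window. The share over all genes was taken per window and not per gene, so the 8 of 10 has no like share beside it. Shown here are the windows of 5 genes, chosen with the results below in view: PGK1, LDHA and ALDOC, which rose more than 2-fold at low oxygen, PKM, which did so with no match, and ENO2, which has a match and did not pass the test. Each reads 5′ to 3′ on the strand of its gene, and capitals mark the matches.
PGK1, chrX:78103998-78104247, plus strand: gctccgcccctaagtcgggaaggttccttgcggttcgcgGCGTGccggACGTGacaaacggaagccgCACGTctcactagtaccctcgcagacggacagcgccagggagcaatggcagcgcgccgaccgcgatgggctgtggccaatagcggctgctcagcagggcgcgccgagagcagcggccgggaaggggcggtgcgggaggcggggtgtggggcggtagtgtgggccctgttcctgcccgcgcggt
LDHA, chr11:18394313-18394562, plus strand: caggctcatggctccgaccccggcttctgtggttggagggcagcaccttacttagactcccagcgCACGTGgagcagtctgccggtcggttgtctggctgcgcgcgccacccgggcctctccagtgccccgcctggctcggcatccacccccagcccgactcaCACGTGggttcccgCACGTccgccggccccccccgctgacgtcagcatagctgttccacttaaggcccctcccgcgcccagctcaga
ALDOC, chr17:28576896-28577145, minus strand: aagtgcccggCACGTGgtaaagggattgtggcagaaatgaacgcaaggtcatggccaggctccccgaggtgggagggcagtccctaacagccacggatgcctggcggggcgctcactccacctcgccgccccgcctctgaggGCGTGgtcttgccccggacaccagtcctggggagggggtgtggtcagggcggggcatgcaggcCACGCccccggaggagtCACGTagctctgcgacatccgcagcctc
ENO2, chr12:6914330-6914579, plus strand: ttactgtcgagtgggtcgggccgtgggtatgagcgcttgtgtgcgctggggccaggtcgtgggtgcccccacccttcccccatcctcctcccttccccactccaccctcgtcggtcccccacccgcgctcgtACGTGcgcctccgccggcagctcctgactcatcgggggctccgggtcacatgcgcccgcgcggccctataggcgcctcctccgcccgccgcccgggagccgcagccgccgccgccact
PKM, chr15:72231191-72231440, minus strand: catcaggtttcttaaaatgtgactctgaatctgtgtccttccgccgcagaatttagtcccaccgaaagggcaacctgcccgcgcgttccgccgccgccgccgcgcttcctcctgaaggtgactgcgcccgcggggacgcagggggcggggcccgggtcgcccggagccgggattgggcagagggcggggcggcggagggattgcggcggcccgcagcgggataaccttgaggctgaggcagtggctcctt

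The ALDOC window held 4 matches, and the PGK1 and LDHA windows held 3 each. The window of ENO2 held 1, and the window of PKM held 0. LDHA has another window in the table with 1 match. ENO1 had 2, GAPDH had 1, the 2 windows of TPI1 had 0 and 2, and each of the 3 windows of ALDOA had 1. PGAM1 had 0. The 5 windows shown end at the start of the canonical GENCODE transcript of their gene, 0 bases away, while those of GAPDH and PGAM1 end 747 and 1627 bases from it. The TPI1 window with 2 matches ends 574 bases from it, and the one with 0 matches ends at it. The other LDHA window ends 1788 bases away. Of the 3 ALDOA windows, 2 end 1481 and 1263 bases away and overlap each other. A match is a matter of letters only and is no measure of binding.

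The 10 mRNAs covered a wide range of levels. In CPM per kilobase, using the length of the canonical GENCODE transcript, WT cells held GAPDH, the enzyme that oxidises the triose phosphate, at 3870 ± 131 (SD, n = 2), ENO1 at 1552 ± 20.9, TPI1, the triose phosphate isomerase, at 738 ± 17.3, and PGAM1, the phosphoglycerate mutase, at 582 ± 0.792. PKM, the pyruvate kinase of most tissues, followed at 469 ± 9.02, LDHA at 291 ± 13.9 and PGK1, the phosphoglycerate kinase that makes the first ATP of the pathway, at 149.9 ± 16.4. The lowest levels were those of ALDOC at 50.6 ± 0.275, ENO2 at 24.5 ± 0.000707 and ALDOA at 7.95 ± 0.673. Between neighbours in this order, the libraries did not overlap in WT, nor in untreated KO cells, which had the same order. At 5% O2 the order changed in 1 place, with no overlap between neighbours: LDHA, at 1184 ± 51.8 CPM per kilobase, stood above TPI1 at 1055 ± 22.6, PGAM1 at 992 ± 10.2 and PKM at 748 ± 10.4. With NAC, PGAM1 at 729.9 ± 64.5 stood above TPI1 at 662 ± 14.6, and the libraries of PKM, at 541 ± 183, overlapped those of TPI1 above it and of LDHA, at 436 ± 87.9, below it.

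ALDOA needs a caution. It is the main aldolase of most tissues, yet it was the lowest of the 10, with 218 to 673 counts a library. In hg38 it lies on chromosome 16 from 30064164 to 30070457, and 89.8% of its canonical transcript is shared with exons of other annotated genes. RefSeq (GRCh38.p14) places LOC112694756 from 30053151 to 30070414 on the same chromosome, across the whole of that stretch but its last bases, and that gene is also in the table, with 14 to 59 counts. At default settings a read that overlaps exons of more than 1 gene is not counted. How many reads the ALDOA row lost in this way was not tested, and its level, and ratios to it, are not taken as measures of total aldolase A mRNA. The counts of members called are therefore given also without ALDOA.

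The other rows had smaller overlaps. The share of the canonical transcript covered by exons of other genes was 32.8% for GAPDH and 18.2% for ALDOC, all of it on the opposite strand, which default counting does not tell apart, and 1.04% for TPI1. It was 0 for the other 6. PGAM1 has near copies in the genome: 89.0% of the 64-base words of its transcript occur elsewhere in hg38, against 31.2% for TPI1, 10.2% for GAPDH and 8.77% for LDHA. Reads from such stretches can be lost from the count, so the level of PGAM1 is the least certain after that of ALDOA. GAPDH, TPI1 and ENO2 lie within 389.2 kb of each other on chromosome 12, from 6534512 to 6923698.

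**Figure D1:**
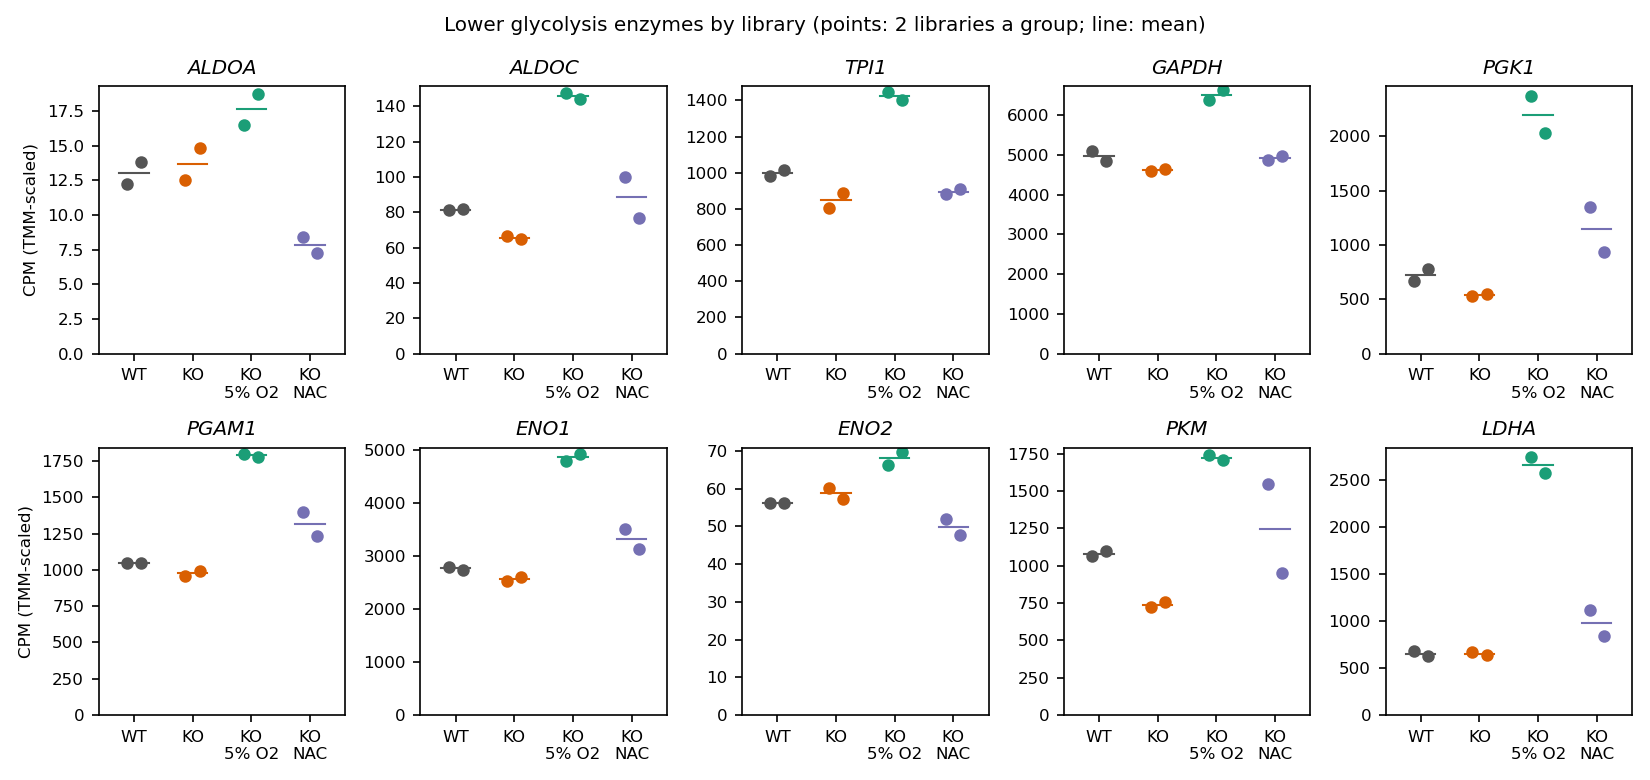
Level of each of the 10 mRNAs in CPM (scaled by the TMM method) in every library, by group, with points for the 2 libraries of a group and a line for their mean. All axes start at 0, and for every gene both 5% O2 libraries lie above both untreated KO libraries.

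Culture of KO cells at 5% O2 went with a rise of 8 of the 10 mRNAs. LDHA and PGK1 rose about 4-fold, PKM and ALDOC more than 2-fold, and ENO1, PGAM1, TPI1 and GAPDH by less. The share of all genes called higher at an adjusted p under 0.05 was 3.68%. The other 2, ALDOA and ENO2, did not pass. None of the 10 fell, against 4.13% of all genes. All 10 log2 fold changes were positive, with a median of 0.90, while 49.9% of all tested genes were positive. Without ALDOA, 8 of 9 rose, with a median of 0.92. In bulk RNA such as this, more cells that make an mRNA and more of it per cell cannot be told apart.

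LDHA, which makes lactate from pyruvate, was at 665 and 634 CPM in the untreated KO libraries and at 2736 and 2571 CPM at 5% O2. Its log2 fold change was 2.03 (SE 0.12, adjusted p = 1.1e-05), or 4.09-fold. PGK1 was at 532 and 551 CPM untreated and at 2371 and 2029 CPM at 5% O2. The log2 fold change of PGK1 was 2.02 (SE 0.15, adjusted p = 4.7e-05), or 4.06-fold. Both genes thus had libraries far apart with no overlap, and by size of increase LDHA ranked 55 and PGK1 ranked 57 among all tested genes.

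PKM, the last ATP-making step, was at 722 and 758 CPM in untreated KO cells and at 1741 and 1708 CPM at 5% O2, a log2 fold change of 1.22 (SE 0.16, adjusted p = 0.00329). ALDOC, the brain-type aldolase, was at 66.5 and 64.7 CPM and at 147 and 144 CPM, a log2 fold change of 1.15 (SE 0.11, adjusted p = 0.000368). With LDHA and PGK1 these were the 4 members past the study's own type of threshold, an absolute log2 fold change over 1 with an unadjusted p under 0.05, which 0.811% of all genes passed upwards. Their windows before the start site held 3, 3, 0 and 4 matches for LDHA, PGK1, PKM and ALDOC.

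The abundant middle enzymes rose by less than 2-fold. ENO1, the ubiquitous enolase, was at 2517 and 2608 CPM untreated and at 4793 and 4919 CPM at 5% O2, a log2 fold change of 0.92 (SE 0.075, adjusted p = 9.8e-05). PGAM1 was at 961 and 993 CPM and at 1801 and 1775 CPM, a log2 fold change of 0.87 (SE 0.080, adjusted p = 0.000225). For both, the libraries within a group lay close together and the groups lay far apart. TPI1 was at 803 and 889 CPM and at 1447 and 1404 CPM, a log2 fold change of 0.75 (SE 0.078, adjusted p = 0.00053). GAPDH was at 4601 and 4655 CPM and at 6384 and 6638 CPM, a log2 fold change of 0.49 (SE 0.067, adjusted p = 0.00329). GAPDH, often taken as a constant reference mRNA, was therefore 1.41-fold higher at 5% O2.

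The calls of GAPDH and PKM were sensitive to single libraries, although their log2 fold changes hardly moved. Without KO library 1 the adjusted p of either was 0.0785, and without 5% O2 library 1 it was 0.0514 for GAPDH and 0.0835 for PKM, with log2 fold changes of 0.48 and 0.52 for GAPDH and 1.19 and 1.21 for PKM. Over all alternatives, the adjusted p ran from 2.0e-07 to 0.0785 for GAPDH and from 1.2e-35 to 0.0835 for PKM.

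ENO2, the neuronal enolase, was at 60.1 and 57.4 CPM untreated and at 66.2 and 69.8 CPM at 5% O2, a log2 fold change of 0.21 (95% interval 0.0095 to 0.41, adjusted p = 0.182). ALDOA was at 12.5 and 14.8 CPM and at 16.5 and 18.7 CPM, a log2 fold change of 0.36 (95% interval 0.024 to 0.71, adjusted p = 0.171). Neither interval reached the log2 fold change of ENO1. The 5% O2 and untreated libraries did not overlap for either gene, although neither passed the adjusted threshold. The 4 neural markers PAX6, SOX1, NES and TUBB3, listed beside the neuronal isozymes, summed to 1122 and 1128 CPM in untreated KO and 882 and 983 CPM at 5% O2. Their sums were 657 and 701 CPM with NAC and 850 and 848 CPM in WT. NES and TUBB3 made nearly all of each sum. In untreated KO, NES was called higher than in WT, with a log2 fold change of 0.83 (adjusted p = 0.00769). Its mean was 246 CPM in WT, 436 CPM in untreated KO and 249 CPM at 5% O2. At 5% O2 NES was called lower than in untreated KO, with a log2 fold change of -0.81, while TUBB3 was level at -0.00086. With NAC both were called lower, at -1.78 and -0.31. The part of these markers in the ENO2 and ALDOC values was not tested.

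Together the 10 mRNAs took 1.16% ± 0.0156 (SD, n = 2) of all gene counts in untreated KO cells and 2.09% ± 0.0151 (SD, n = 2) at 5% O2. The separate shares were 1.15% and 1.17% against 2.11% and 2.08%. Of the net gain, ENO1 supplied 22.2%, LDHA 20.6%, PGK1 17.0%, GAPDH 16.3%, PKM 9.80%, PGAM1 7.79%, TPI1 5.45% and ALDOC 0.795%. The abundant ENO1 thus added the most counts although its fold change was smaller than that of LDHA.

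**Figure D2:**
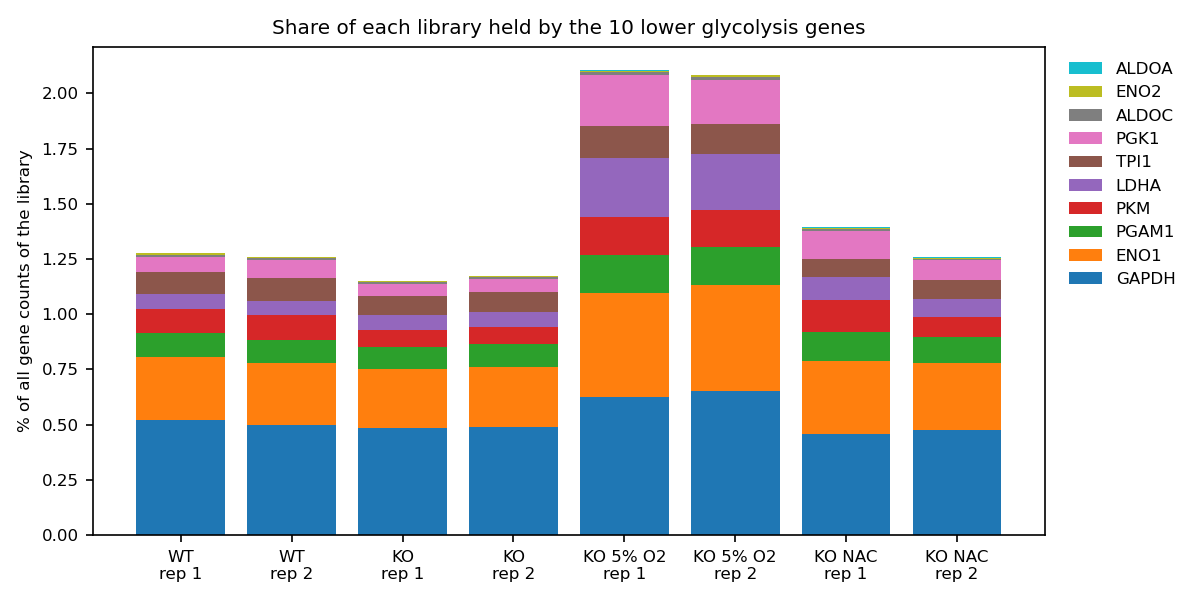
Percent of all gene counts of each library held by the 10 genes, as bars that start at 0, with 1 coloured segment per gene. Both 5% O2 bars reach above 2%, and the other 6 bars lie between 1.15% and 1.39%.

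The rest of the pathway was read from lists that, like the 10 genes, were chosen with earlier results of these data known. Of 10 listed enzymes of upper glycolysis, 8 were tested, and 4 rose at 5% O2, where 3.68% of all genes rose: HK2, a hexokinase, with a log2 fold change of 0.87, the isomerase GPI with 0.52, and the phosphofructokinase genes PFKP and PFKL with 0.45 and 0.35. The median of the 8 was 0.28. The edgeR adjusted p was 0.00329 for HK2 and 0.0127 for GPI, and nearer the threshold for PFKP (0.0317) and PFKL (0.0312). Of 8 enzymes that branch off lower glycolysis, PDHB of pyruvate dehydrogenase rose by 0.35 on the log2 scale and the other 7 did not pass. PDHB was just past the threshold (adjusted p = 0.0480). Of 13 genes listed as other isozymes of the same steps, 6 were tested, and LDHB was the 1 that rose, by 0.35 (adjusted p = 0.0391). PKLR, the pyruvate kinase of red cells, and PGAM2, the mutase of muscle, had 0 counts in all 8 libraries.

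**Figure D3:**
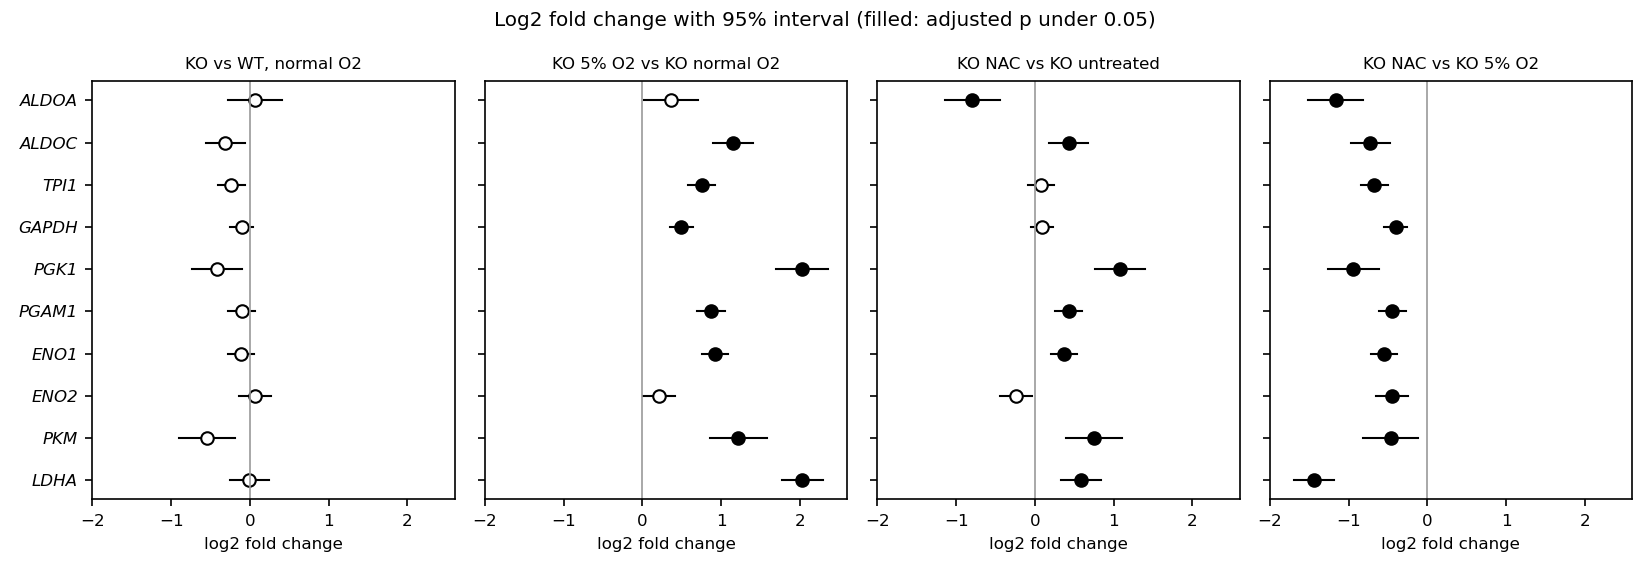
Log2 fold change of each of the 10 genes with its 95% interval in the 4 comparisons, with filled points for an adjusted p under 0.05. At 5% O2 all 10 points lie above 0 and 8 are filled, and between the treatments all 10 points lie below 0.

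In the main fit to all 8 libraries, the loss of UBQLN1 alone went with no call among the 10 genes at normal O2. Some of these results depended on the fit, as given below. By edgeR, 0 rose and 0 fell, while 1.34% of all tested genes were called higher and 0.622% lower. DESeq2 also called 0. At an unadjusted p under 0.05, 4 of the 10 passed, PKM, PGK1, ALDOC and TPI1, all lower in KO. None passed the fold change threshold described above, which 1.11% of all genes passed upwards and 1.46% downwards. The median log2 fold change of the 10 was -0.11, 2 of the 10 were positive against 49.6% of all genes, and without ALDOA 0 of 9 were called in each direction and 1 of 9 was positive.

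PKM was at 1066 and 1096 CPM in WT and at 722 and 758 CPM in KO, a log2 fold change of -0.55 (SE 0.16, adjusted p = 0.111). PGK1 was at 665 and 777 CPM in WT and at 532 and 551 CPM in KO, a log2 fold change of -0.41 (SE 0.15, adjusted p = 0.170). ALDOC was at 81.1 and 81.7 CPM in WT and at 66.5 and 64.7 CPM in KO, a log2 fold change of -0.31 (SE 0.11, adjusted p = 0.186). In all 3 genes both KO libraries lay below both WT libraries. Whether they passed depended on the fit. The shares of all genes given above are those of the main fit and do not apply to the other fits. Over all genes too, calls became more frequent without NAC library 1. The main fit takes 1 estimate of the spread per gene from all 4 groups, the NAC pair included. The SE of PKM was 0.16 there and 0.069 with only the WT and KO libraries at normal O2. Fitted with only the WT and KO libraries at normal O2, the 3 genes passed, with adjusted p of 0.00288 for PKM, 0.0225 for PGK1 and 0.0468 for ALDOC, and they also passed when either NAC library was left out. With all 8 libraries and a filter of at least 1 count in place of the main filter, PKM and PGK1 passed, with adjusted p of 5.3e-07 and 0.000521. Over all alternatives the adjusted p ran from 5.3e-07 to 0.534 for PKM, from 0.000521 to 0.606 for PGK1 and from 0.0271 to 0.572 for ALDOC.

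LDHA was nearly level between the genotypes, at 675 and 631 CPM in WT and 665 and 634 CPM in KO, and the 95% interval of its log2 fold change ran from -0.26 to 0.24. TPI1 was at 980.0 and 1013 CPM in WT and 803 and 889 CPM in KO, a log2 fold change of -0.24 (SE 0.078, adjusted p = 0.143). The log2 fold changes of ENO1, GAPDH and PGAM1 were -0.11, -0.10 and -0.10, and those of ENO2 and ALDOA were 0.062 and 0.068. The 10 genes took 1.27% ± 0.0108 (SD, n = 2) of the counts in WT. Of the 8 tested upper enzymes and the 8 branch enzymes none was called by edgeR, with 3 and 2 at an unadjusted p under 0.05. Among the 6 tested genes of the isozyme list, LDHD was the 1 gene called. LDHD encodes the mitochondrial enzyme that oxidises D-lactate and is not a form of LDHA. It was at 6.53 and 6.09 CPM in WT and at 1.98 and 1.21 CPM in KO, a log2 fold change of -1.98 (SE 0.35, adjusted p = 0.0140).

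With NAC, 6 of the 10 mRNAs were higher than in untreated KO cells and 1 was lower. PGK1 rose most, 2.12-fold, followed by PKM, LDHA, ALDOC, PGAM1 and ENO1, and ALDOA fell. TPI1, GAPDH and ENO2 did not pass. NAC went with changes across the whole transcriptome, with 23.8% of all tested genes called higher and 20.8% lower. The median log2 fold change of the 10 was 0.40 against 0.023 over all genes, and without ALDOA 6 of 9 rose and 0 fell. Of the 10 values 8 were positive, also 8 of 9 without ALDOA, against 51.4% of all genes. Only PGK1 passed the fold change threshold upwards, which 3.63% of all genes passed, and none passed it downwards, against 5.39%.

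PGK1 was at 1354 and 939 CPM with NAC, both above the untreated libraries, a log2 fold change of 1.08 (SE 0.15, adjusted p = 0.000126). PKM was at 1546 and 949 CPM with NAC, a log2 fold change of 0.75 (SE 0.16, adjusted p = 0.00265). LDHA was at 1117 and 838 CPM with NAC, a log2 fold change of 0.59 (SE 0.11, adjusted p = 0.00138). In all 3 genes NAC library 1, the library with the mesenchymal markers, held the higher value, and the 2 NAC libraries lay further apart than those of any other group.

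ALDOC was at 99.97 and 76.9 CPM with NAC, a log2 fold change of 0.43 (SE 0.11, adjusted p = 0.00876). PGAM1 was at 1397 and 1233 CPM, a log2 fold change of 0.43 (SE 0.079, adjusted p = 0.000962). ENO1 was at 3512 and 3136 CPM, a log2 fold change of 0.38 (SE 0.075, adjusted p = 0.00161). These 3 genes showed the same pattern, with library 1 above library 2 and both above untreated KO. ALDOA was at 8.43 and 7.28 CPM, below both untreated libraries, a log2 fold change of -0.80 (SE 0.16, adjusted p = 0.00165).

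TPI1 and GAPDH stayed near their untreated levels, at 880.5 and 908 CPM and at 4876 and 4984 CPM. The 95% interval of the log2 fold change ran from -0.090 to 0.25 for TPI1 and from -0.054 to 0.24 for GAPDH. ENO2 was at 52.0 and 47.7 CPM, a log2 fold change of -0.24 (SE 0.093, adjusted p = 0.0565), with both NAC libraries below both untreated libraries.

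Without NAC library 1, the log2 fold change was 0.79 for PGK1, 0.36 for PKM, 0.36 for LDHA, 0.33 for PGAM1 and 0.29 for ENO1, and all 5 still passed. ALDOA was still lower, at -0.91, and TPI1 and GAPDH, at 0.099 and 0.10, still did not pass. The value of PKM was thus less than that with all libraries by more than 1.5 times, and so was that of LDHA. ALDOC lost its call, at 0.23 (adjusted p = 0.0731, with a range of 0.000121 to 0.0731 over all alternatives), and also did so without either untreated KO library. ENO2 gained one, at -0.30 (adjusted p = 0.0332, with a range of 0.0332 to 0.255). Without NAC library 2 in its place, PKM was at 1.06, LDHA at 0.78, PGK1 at 1.32 and ALDOC at 0.61. The part of the mesenchymal and pluripotency markers in these values was not tested.

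The call of LDHA with NAC was lost once transcript length and GC content were taken into account. LDHA and PGK1 have the lowest GC content of the 10, 41.8% and 42.8% of the transcript, against 52.7% to 60.6% in the others. When each library was corrected for the dependence of its values on these properties, LDHA was at 0.05 (adjusted p = 0.759, with a range of 3.4e-09 to 0.759). PGK1 was at 0.95, PKM at 0.90, ALDOC at 0.40, ENO1 at 0.34 and PGAM1 at 0.34, and these 5 still passed. At 5% O2 the same step left LDHA at 1.80 and PGK1 at 1.98.

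**Figure D4:**
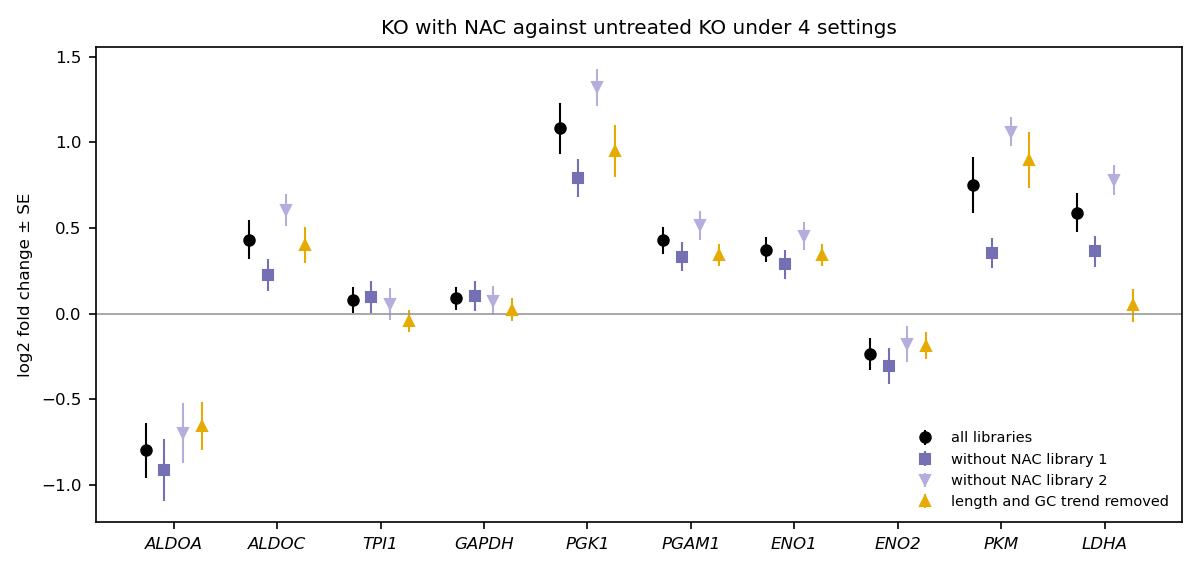
Log2 fold change of KO cells with NAC against untreated KO cells, with its standard error, for each of the 10 genes under 4 settings. PGK1 lies above 0.7 in every setting, PKM moves from 0.36 to 1.06 with the library left out, and LDHA falls to 0.05 once length and GC content are corrected for.

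In upper glycolysis, 4 of the 8 tested enzymes fell with NAC, where 20.8% of all genes fell and 23.8% rose: HK2 by 0.55, GPI by 0.47, PFKL by 0.44 and PFKP by 0.40 on the log2 scale. Their values at 5% O2, given above, were set against the same untreated KO libraries. ADPGK, the ADP-dependent glucokinase, was the 1 that rose, by 0.71. HK2 was at 133 and 129 CPM untreated, 225 and 254 CPM at 5% O2 and 101 and 78.3 CPM with NAC, with no overlap between groups. Among the 8 branch enzymes, BPGM, the red cell mutase that diverts the substrate of PGK1, rose by 0.87 and PDHB by 0.52, and PC, pyruvate carboxylase, fell by 0.53. These 2 higher and 1 lower of 8 were near or below the shares over all genes. LDHB rose by 0.54 (SE 0.091, adjusted p = 0.000559) and was the 1 of 6 tested other isozymes to pass, a share below that over all genes. Without NAC library 1 these 9 genes kept their directions, with HK2 at -0.75, PFKP at -0.58, GPI at -0.44, PFKL at -0.42, ADPGK at 0.76, BPGM at 0.66, PDHB at 0.41, PC at -0.36 and LDHB at 0.50. HK1, PDHA1 and GPD2, not called with all libraries, were at -0.42, -0.28 and 0.28 there.

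Set directly against each other, the treatments differed in all 10 genes. All 10 were lower with NAC than at 5% O2, where 13.6% of all tested genes were called lower and 15.5% higher. The median log2 fold change was -0.61 against 0.038 over all genes. Without ALDOA, 9 of 9 were lower, with a median of -0.55. None of the 10 values was positive, against 52.9% of all genes. LDHA and ALDOA passed the fold change threshold downwards, which 2.46% of all genes passed and which LDHA alone passed without ALDOA, and none passed it upwards, against 1.95%.

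LDHA differed most, by -1.44 (SE 0.12, adjusted p = 7.7e-05), with 1117 and 838 CPM with NAC against 2736 and 2571 CPM at 5% O2. PGK1 differed by -0.94 (SE 0.15, adjusted p = 0.00116), ALDOC by -0.72, TPI1 by -0.67 and ENO1 by -0.55. The log2 fold changes of ENO2, PGAM1 and GAPDH lay between -0.45 and -0.40. ALDOA, with the limits of its row, differed by -1.16. In each of these genes both NAC libraries lay below both 5% O2 libraries. In upper glycolysis 5 of the 8 tested enzymes, against the 13.6% of all genes, were also lower with NAC, among them HK2 by -1.42 and GPI by -0.99, and ADPGK was higher by 0.49. Of the 8 branch enzymes, BPGM and GPD1L, a glycerol phosphate dehydrogenase, were higher, by 0.86 and 0.46, and the other 6 did not pass. Of the 6 tested other isozymes 1 passed, PGAM4, a near copy of PGAM1, which was lower by 1.04 and whose row held 43 to 114 counts a library. Without NAC library 1 the calls of GPD1L and PGAM4 were lost, at 0.40 (adjusted p = 0.117) and -1.09 (adjusted p = 0.0807), the other calls kept their direction, and PDHA1 was called lower.

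PKM was the exception in firmness. Its log2 fold change was -0.47 (SE 0.16, adjusted p = 0.0493), just past the threshold. NAC library 1 held 1546 CPM, close to the 1741 and 1708 CPM at 5% O2, and NAC library 2 held 949 CPM. The call was lost with DESeq2 (adjusted p = 0.117), with only the libraries compared (0.0953), after the correction for length and GC content (0.153), and when any 1 library other than NAC library 1 was left out, with a range of 6.6e-06 to 0.192 over all alternatives. Without NAC library 2 the log2 fold change of PKM was -0.16, and without NAC library 1 it was -0.86. Without NAC library 1 all 10 genes were still called lower, from -0.39 for GAPDH to -1.67 for LDHA, with a median of -0.76. The call of ENO2 was lost without 5% O2 library 2, at -0.41 (adjusted p = 0.0597, with a range of 0.000119 to 0.0597).

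The isozymes of a step were compared as a ratio within each library, which does not depend on the scaling between libraries. With 2 libraries against 2, the exact permutation test cannot give a two-sided p under 0.333, so the ratios are a description. LDHA over LDHB, the subunit of the heart-type enzyme, had a log2 ratio per kilobase of -1.86 and -1.69 in WT, of -1.64 and -1.68 in untreated KO, of 0.10 and -0.067 at 5% O2, and of -1.45 and -1.79 with NAC. LDHB was thus about 3-fold above LDHA in 6 of the libraries and level with it at 5% O2, where the ratio was 3.20-fold that of untreated KO. With NAC the libraries overlapped those of untreated KO, with a difference of 0.038, or -0.13 without NAC library 1, and LDHB itself rose with NAC. The LDHB transcript overlaps another annotated gene on the same strand over 76.5% of its length, and whether the annotation used for counting holds that gene is not given in the sources used here.

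ENO2 over ENO1 had a log2 ratio per kilobase of -5.75 and -5.87 in untreated KO, of -6.54 and -6.50 at 5% O2 and of -6.44 and -6.41 with NAC. ENO1 was thus the dominant enolase everywhere, and the ratio was lower by 0.71 at 5% O2 and by 0.61 with NAC, or 0.59 without NAC library 1, with no overlap. In WT the ratio was -6.00 and -5.97. The canonical transcripts of ENO2 and ENO1 share no base with exons of other annotated genes. ALDOC over ALDOA had a log2 ratio of 2.44 and 2.16 in untreated KO, of 3.19 and 2.98 at 5% O2 and of 3.596 and 3.43 with NAC, but its lower term is the ALDOA row described above.

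**Figure D5:**
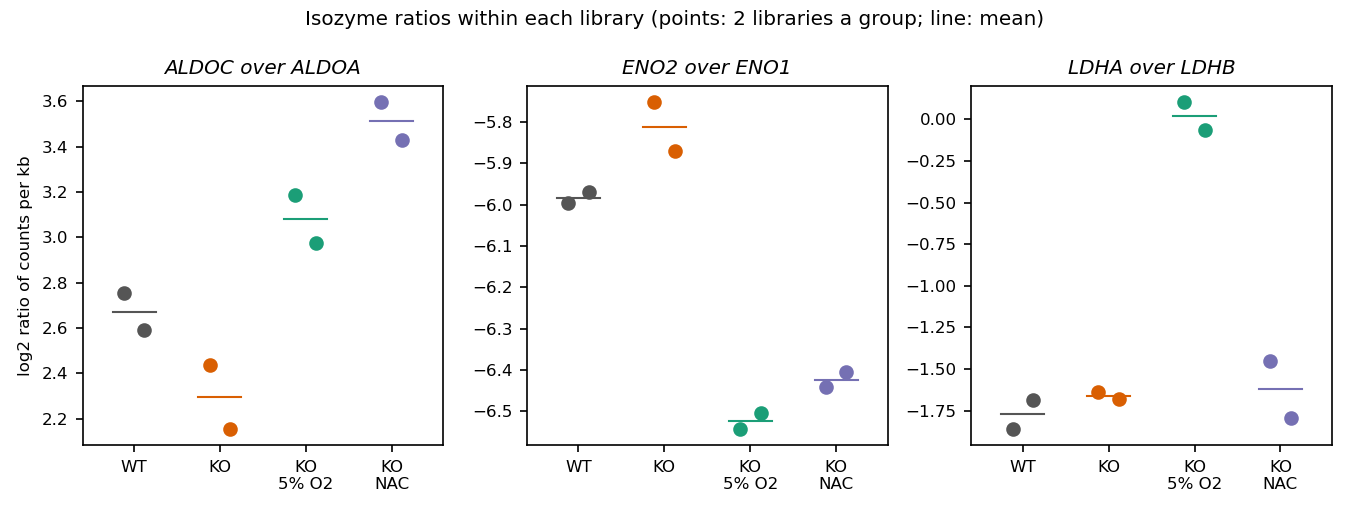
Log2 ratio of counts per kilobase of ALDOC over ALDOA, ENO2 over ENO1 and LDHA over LDHB in every library, by group, with points for the 2 libraries and a line for their mean. The vertical axes do not start at 0, and the LDHA over LDHB points of 5% O2 lie near 0 while all others lie below -1.4.

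Across the 8 libraries, 8 of the 10 genes followed the mean of the 10 closely. The Pearson correlation of each with the mean of the 10 was 0.99 for ALDOC, 0.98 for LDHA and ENO1, and between 0.91 and 0.96 for PGAM1, GAPDH, PGK1, TPI1 and PKM. It was 0.68 for ENO2 and 0.50 for ALDOA. These values describe 8 libraries in 4 groups, each gene is part of the mean, and the gap between the 5% O2 libraries and the rest sets most of the spread. Among 12343 genes outside the lists, those most like the mean of the 10 were PDK1, with r = 0.990, BNIP3 with 0.989, RIMKLA with 0.988, P4HA2 with 0.988 and MPI with 0.983. PDK1 encodes a kinase that turns off pyruvate dehydrogenase, BNIP3 a mitochondrial protein of mitophagy, and P4HA2 a subunit of collagen prolyl hydroxylase.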

How the data were processed

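RNA-sequencing libraries were made from total RNA of WA26 hESCs. After trimming and alignment to the hg38 genome (HISAT2), the authors ran featureCounts with its defaults and deposited the raw gene counts, which were not normalized. FastQC 0.11.9 is named in the submitters' processing notes. The annotation behind the counts is not given in the sources used here. By default, reads that match several places or several genes are left out and strand is ignored. Of 12 labelled samples, 8 libraries were analysed.

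In R 4.3.3, edgeR 4.0.16 was applied to the counts of 8 libraries: filterByExpr with a minimum count of 10, TMM scaling, and a quasi-likelihood F test of a model that had 1 mean per group, no block and 4 residual degrees of freedom. P-values were adjusted by Benjamini-Hochberg over all 15916 tested genes, and a call is an adjusted p under 0.05. CPM values are counts per TMM-scaled library size, and log2 fold changes are those of the model. The biological coefficient of variation was 13.7%. The study speaks of biological replicates for its oxygen comparison, but the sources do not say whether the libraries of a group came from separate cultures or clones, so the p-values measure only the spread between these libraries.

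The genes named are the 10 enzymes, the listed other isozymes, upper glycolysis and branch enzymes that passed the test, the markers of cell types, and the 5 genes with the highest correlation with the mean of the 10. Of the listed isozymes, 1 is not reported here. The genes and lists were chosen with earlier results of these data known. Of the marker lists, those of endoderm and mesoderm summed to at most 1.50 and 7.07 CPM in any library. Rows of pseudogenes were read as well: PGAM1P5 held 6 to 38 counts, TPI1P2 held 2 to 23 and TPI1P3 held 0.

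The alternatives used DESeq2 1.42.0, scaling by RLE or by upper quartiles, weaker and stricter filters, replicate number as a block, fits limited to the libraries of one comparison, a threshold on fold change, a correction for transcript length and GC content (mgcv 1.9.3, with values for 96.0% of tested genes), and each library left out in turn. Leaving out NAC library 1 was extended to the related enzymes and the pluripotency markers after the data were seen. In a test on simulated data for KO 5% O2 against KO normal O2, over 15634 genes, 92 of 100 genes changed by 1 on the log2 scale and 100 of 100 changed by 2 were recovered, and 9 unchanged genes were called. Over the 4 comparisons, 88 to 92 of 100 changed by 1 were recovered, and 6 to 15 unchanged genes were called. The simulation gave every gene and group the same biological coefficient of variation, 14%, whereas the real spread differed between groups.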

Additional observations from a re-analysis of the deposited data

How the results depend on the processing

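With 2 libraries a group, the precision is set by few libraries rather than by depth, which was at least 31236968 counts. The shares of all genes called also changed with the fit, and those given above are of the main fit. The number of the 10 genes called lower in KO than in WT, 0 as reported, was 2 with a filter of at least 1 count and 3 with only the libraries compared, and 0 to 3 when 1 library was left out. The number higher at 5% O2, 8 as reported, was 4 with the fold change threshold and 6 to 8 when 1 library was left out. With NAC, the 1 lower gene became 2 with DESeq2, RLE, upper quartile scaling and a filter of at least 10 counts in every library, 0 with the fold change threshold and 1 to 2 when 1 library was left out, and the 6 higher genes became 1 with the fold change threshold and 5 to 6 when 1 library was left out. Between the treatments, the 10 lower genes became 2 with the fold change threshold and 8 to 10 when 1 library was left out. Among the 10 genes, directions reversed only for values close to 0: for LDHA in KO against WT, with 0.11 after the correction for length and GC content and -0.055 to 0.043 when 1 library was left out, for ALDOA in the same comparison, with -0.058 to 0.19, and for TPI1 with NAC, with -0.044 after the same correction. The median log2 fold change of the 10 genes ran from -0.13 to -0.088, from 0.87 to 0.92, from 0.26 to 0.49 and from -0.76 to -0.51 in the 4 comparisons when 1 library was left out. Same-numbered libraries showed little shared deviation over all genes (correlations from -0.023 to 0.082). This check cannot tell whether the numbers mark a shared culture or clone, which the sources used here do not give. With the replicate block, 0 genes were called in KO against WT, 8 rose at 5% O2, 6 rose and 1 fell with NAC, and all 10 were lower with NAC than at 5% O2. Of the values of single genes and shares under all alternatives, 714 kept direction and side of the threshold, 39 lost the call, 17 gained it, 6 reversed and 3 moved by more than 1 SD.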
